A study of Homo sapiens with 2 samples.

Results

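The 761 LSD1 peaks described here lay between protein-coding genes and remote from their start sites, and made up 3.78% (95% exact binomial interval 3.52 to 4.06) of the 20110 peaks in the authors' list. A peak was called remote by its midpoint. That midpoint had to lie outside the body of every protein-coding gene, more than 50 kb from the transcription start site (TSS) of every protein-coding transcript, and more than 1 kb from every TSS of a long noncoding RNA (lncRNA). Of all peaks, 5939 had a midpoint outside coding genes and 987 of these were more than 50 kb from a coding TSS. A lncRNA TSS within 1 kb then set aside 226 peaks and left the 761. The rule used position alone, and neither score, width nor sequence entered it. Judged by every base and not by the midpoint, 717 of the 761 met the rule, and 17 reached into a coding gene with some base.

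The peaks came from PC-3M-luc, a human prostate carcinoma line of the metastatic, androgen-independent PC-3 lineage that carries luciferase. DNA was immunoprecipitated with an Abcam antibody against LSD1 and sequenced (ChIP-seq), as 1 library, beside 1 library of input DNA. Both came from cells of the genotype labelled Control, at passages 17 to 20, grown in EMEM medium with 10% fetal bovine serum and glutamine, and no treatment is named. Since neither arm was replicated, values are given as descriptions, without p-values. Intervals are 95% and cover counting error only, and the read depth behind a peak is unknown.

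LSD1 (KDM1A, lysine-specific demethylase 1) removes methyl groups from lysine 4 of histone H3, mostly as part of the CoREST and NuRD corepressor complexes. It does not read a DNA sequence of its own, and is brought to promoters and enhancers by transcription factors and their corepressors. The wide spaces between genes hold distal enhancers, lncRNA genes, and many small RNA genes such as those of transfer RNA (tRNA) and U1 RNA, which carry their own promoters.

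Some kinds of sequence recurred under the remote peaks, and examples of each are printed here in hg19 coordinates, 5′ to 3′. The first is the AP-1 motif, the element bound by dimers of FOS and JUN proteins, written TGACTCA and read on both strands. It is in capitals in 61 bases from the midpoint windows of the 4 highest-scoring remote peaks that held it, named by the nearest coding gene: chr6:74290205-74290265 near EEF1A1, chr16:86698318-86698378 near FOXL1, chr13:45492376-45492436 near NUFIP1 and chr12:3413858-3413918 near PRMT8, all on the plus strand.
EEF1A1: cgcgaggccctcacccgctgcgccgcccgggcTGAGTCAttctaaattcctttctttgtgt
FOXL1: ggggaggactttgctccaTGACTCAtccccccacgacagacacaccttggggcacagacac
NUFIP1: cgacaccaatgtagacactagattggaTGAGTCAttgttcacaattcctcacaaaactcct
PRMT8: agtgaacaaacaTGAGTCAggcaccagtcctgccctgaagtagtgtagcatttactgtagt

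The second kind is a tRNA-like element. Capitals mark its A box and its B box, the internal promoter elements that recruit RNA polymerase III. The examples are chr6:144537684-144537766 (plus strand, nearest coding gene STX11), chr6:28626014-28626085 (minus strand, SCAND3) and chr6:28697092-28697163 (plus strand, SCAND3).
STX11: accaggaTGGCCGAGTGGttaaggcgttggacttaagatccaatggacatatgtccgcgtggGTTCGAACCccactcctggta
SCAND3, first: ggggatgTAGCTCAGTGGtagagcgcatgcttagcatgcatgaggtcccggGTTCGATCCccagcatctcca
SCAND3, second: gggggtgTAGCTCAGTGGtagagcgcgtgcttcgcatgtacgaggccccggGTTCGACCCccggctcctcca

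The third kind is the U1 gene, which encodes the small nuclear RNA that recognises 5′ splice sites. All 3 U1 genes or copies under a remote peak are given whole: RNVU1-18 (chr1:149224058-149224221, minus strand), RNU1-59P (chr1:144534038-144534199, plus strand) and RNU1-120P (chr1:147735751-147735907, plus strand). Capitals mark ACTTACCTG, the letters of the U1 5′ end that pair with a 5′ splice site, where they occur unbroken.
RNVU1-18: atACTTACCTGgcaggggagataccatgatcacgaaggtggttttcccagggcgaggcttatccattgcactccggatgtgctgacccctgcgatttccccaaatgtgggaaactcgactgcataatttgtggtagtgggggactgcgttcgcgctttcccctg
RNU1-59P: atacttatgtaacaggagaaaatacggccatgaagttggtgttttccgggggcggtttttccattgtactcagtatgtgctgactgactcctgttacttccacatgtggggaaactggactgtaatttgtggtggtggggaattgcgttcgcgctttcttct
RNU1-120P: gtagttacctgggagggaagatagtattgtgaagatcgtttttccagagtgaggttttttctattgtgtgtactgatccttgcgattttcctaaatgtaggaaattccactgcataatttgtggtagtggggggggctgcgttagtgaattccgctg

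The last kind is a CpG-rich centre, shown by 150 bases at the midpoints of the peaks nearest to PRKX (chrX:3733599-3733748) and NTMT1 (chr9:132176110-132176259), both on the plus strand and with every CG dinucleotide in capitals.
PRKX: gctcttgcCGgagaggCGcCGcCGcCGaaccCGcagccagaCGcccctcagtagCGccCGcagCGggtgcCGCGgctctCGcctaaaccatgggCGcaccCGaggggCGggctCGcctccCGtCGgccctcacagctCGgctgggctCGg
NTMT1: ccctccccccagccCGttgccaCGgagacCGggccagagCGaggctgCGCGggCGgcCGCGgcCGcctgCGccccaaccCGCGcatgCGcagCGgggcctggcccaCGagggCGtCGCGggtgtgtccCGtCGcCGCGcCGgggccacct

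Remote sequence was sparsely occupied, and the more so the farther it lay from genes. Remote bases made up 37.3% of the non-gap genome (1067 Mb) and carried 0.714 peaks per Mb (exact Poisson interval 0.664 to 0.766), against 6.78 (6.54 to 7.02) in the gene-flanking intergenic sequence within 50 kb of a TSS but more than 1 kb from it. Bases and peaks at lncRNA starts were left out of the remote value but not of the gene-flanking one. Between 50 and 100 kb from the nearest coding TSS there were 368 peaks, or 1.74 per Mb (1.57 to 1.93). Between 100 and 200 kb there were 240, or 0.999 per Mb (0.876 to 1.13). The 104 peaks between 200 and 500 kb gave 0.311 per Mb (0.254 to 0.377), and the 49 beyond 500 kb gave 0.174 (0.129 to 0.231). The intervals of neighbouring distance groups did not overlap, so the density stepped down at each distance beyond its counting error. The median remote peak lay 102.6 kb from a coding TSS, with quartiles of 69.1 and 169.7 kb.

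**Figure D1:**
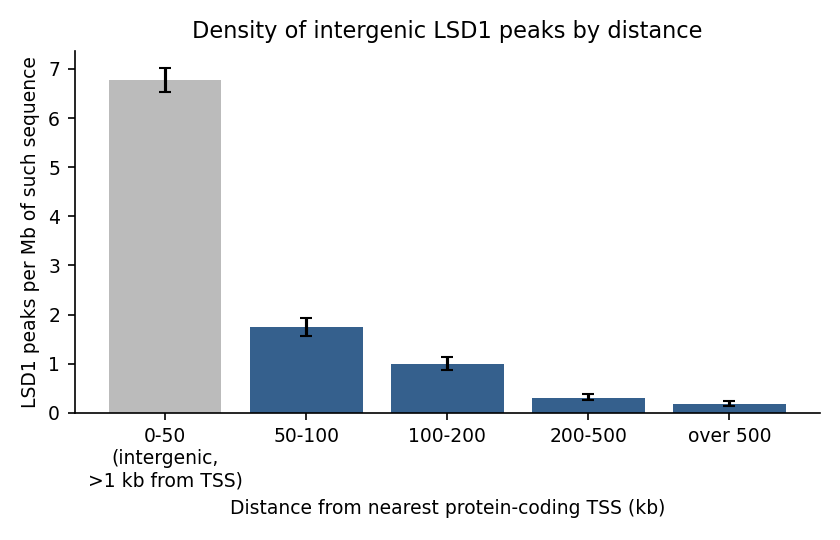
Density of intergenic LSD1 peaks, in peaks per Mb of sequence at that distance, against the distance from the nearest protein-coding TSS in kb; bars are the observed density, error bars exact 95% Poisson intervals, and the grey bar is gene-flanking intergenic sequence. Remote density ran from 1.74 per Mb at 50 to 100 kb to 0.174 per Mb beyond 500 kb.

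Just inside the limit of 50 kb lay peaks nearest to TEX44 (50081 bp, score 110.68), EID3 (50163 bp, score 1754.66) and LIF (50176 bp, score 740.15). Just outside it lay peaks nearest to KRBA1 (49922 bp, score 90.16) and SLC4A7 (49955 bp, score 191.59). The score is the authors' own value per peak, of a scale not given in the sources used here, and serves only to rank and describe peaks within the list.

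Remote peaks were on the whole narrow and low in score. Their median score was 94.7 (order-statistic interval 89.5 to 101.2), with quartiles of 64 and 180.2, close to that of peaks inside coding genes (95, interval 92.5 to 98.1). It was below the gene-flanking intergenic median of 125.9 (120.5 to 131.6) and below the 389.1 (380.5 to 399.6) of promoter peaks, whose midpoints lay within 1 kb of a coding TSS. A score of at least 100 was reached by 361 remote peaks (47.4%) and by 59.1% of gene-flanking peaks, a difference of -11.6 percentage points (Newcombe interval -15.6 to -7.68). Median width was 1220 bp (1159 to 1281) in remote peaks and 1430 bp (1396 to 1463) in gene-flanking peaks. Gene-flanking peaks include those at lncRNA starts, while the rule took such peaks out of the remote set. The 226 taken out had a median score of 171.5 and a median width of 1436 bp, so the rule itself bears on these contrasts. Median scores were 99.8 (91.3 to 109.1) at 50 to 100 kb and 104.6 (91.8 to 116.6) at 100 to 200 kb. They were 72.5 (64.8 to 89) at 200 to 500 kb and 76.8 (65.2 to 94.7) beyond, and the last interval overlaps those nearer to genes.

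A minority of remote peaks were as high as strong promoter peaks. The highest, at 3100, spanned 7974 bp (chr1:68857498-68865471), 54.2 kb from the TSS of RPE65, which encodes the isomerase of the retinal visual cycle. The value 3100 recurs in the whole list and does not rank the peaks that share it. A second peak nearest to RPE65 scored 381.77. A 5356 bp peak (chr5:82204479-82209834, score 2695.07) lay 166.1 kb from TMEM167A in sequence of only 24.5% GC. The CpG-rich peak nearest to PRKX, an X-linked protein kinase gene, scored 2580.73 over 2894 bp (chrX:3732227-3735120). A narrow peak of 1300 bp (chr2:121832128-121833427, score 2178.11) lay 210 kb from TFCP2L1, a transcription factor of epithelia and of the pluripotent state. These top peaks thus differed widely in width and base composition.

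The next in rank were also unlike each other. A 7194 bp peak (chr12:104744083-104751276, score 1754.66) lay 50.2 kb from EID3 and reached into TXNRD1, which encodes a thioredoxin reductase. Another of 4665 bp (chr12:66358692-66363356, score 1709) lay 142.1 kb from the TSS of HMGA2, an architectural chromatin protein gene of embryonic and tumour cells, and touched that gene with its edge. The CpG-rich peaks nearest to NTMT1, an N-terminal methyltransferase gene (chr9:132174705-132177664), and H3-3A, which encodes histone H3.3 (chr1:226307925-226312584), scored 1692.78 and 1636.94. The twelfth was an AT-rich peak (23.5% GC) of score 1526.03 near NETO1, and the remaining 3 of the 12 lay over U1 genes.

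The 3 widest remote peaks all scored above the upper quartile of 180.2, and of the 5 farthest 1 did. The third widest was the peak near RPE65 given above. The 2 widest, of 14203 and 9996 bp, adjoined each other at chr18:70997408-71011610 and chr18:71011685-71021680, 469.3 and 481.5 kb from NETO1, which encodes an auxiliary protein of glutamate receptors. They scored 508.85 and 282.94, overlapped the lncRNA gene LINC02582, and their centres had 26% and 37.5% GC and no CpG. The peak farthest from any coding TSS lay 1668671 bp from SUCLG1, a citric acid cycle gene (chr2:83017164-83018302, score 183.22). The next, over LINC00662, lay 1492805 bp from UQCRFS1, a gene of respiratory complex III (chr19:28210434-28212072, score 156.75). Of the others, 2 lay in LSP1P5 sequence at 1267 and 1278 kb (scores 62.71 and 54.64), and 1 lay 1258 kb from TENM4 (score 100.51). None of these 5 scored above 183.22. Peaks within 1 Mb of a large assembly gap numbered 8 (1.05%), while 2.98% of remote sequence lay that close.

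Remote peaks were less grouped than those within or beside genes. Another peak of any kind lay within 10 kb of 298 (39.2%, interval 35.7 to 42.7), against 59.8% of gene-flanking and 70.4% of gene body peaks. The difference from gene-flanking peaks was -20.6 percentage points (Newcombe interval -24.4 to -16.7). By the rule no promoter peak can lie within 10 kb of a remote peak, while gene-flanking and gene body peaks can have such neighbours. Promoter peaks were 49.9% of the list, so the rule itself bears on these differences. At promoters the share was 34.2%, 5.01 points lower (1.48 to 8.64). No other peak lay within 50 kb of 293 remote peaks.

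**Figure D2:**
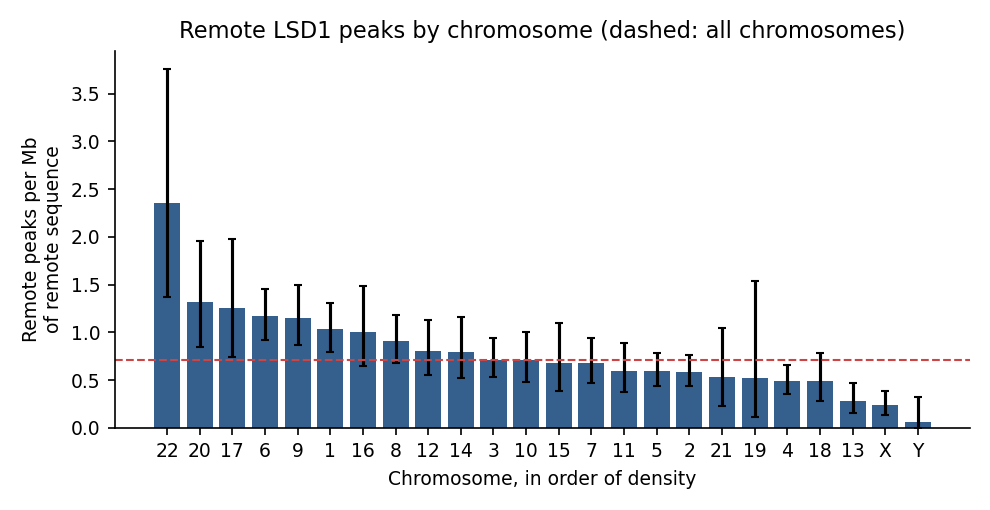
Remote LSD1 peaks per Mb of remote sequence on each chromosome, in order of density, with exact 95% Poisson intervals; the dashed line is the density over all chromosomes. Chromosome 22 stands highest at 2.35 per Mb and chromosome Y lowest at 0.0571. Whether these cells carry chromosome Y was not tested.

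Density within remote sequence differed between chromosomes. Chromosome 22 had 17 remote peaks in 7.24 Mb, or 2.35 per Mb (1.37 to 3.76), and chromosomes 20 and 17 followed at 1.32 and 1.25. Chromosome Y had 1 peak in 17.5 Mb (0.0571 per Mb, interval 0.00144 to 0.318). That peak, of score 205.52, was the only one of the whole list on chromosome Y, and it overlapped the pseudogene CD24P4. Whether these cells carry chromosome Y was not tested, nor was the part of shared reads in this peak. The density of chromosome Y therefore cannot be read as LSD1 occupancy. Chromosome X had 16 peaks (0.235 per Mb, 0.134 to 0.382) and chromosome 13 had 14 (0.279, 0.153 to 0.468), both wholly below the 0.714 of all remote sequence. Remote sequence was not matched between chromosomes for its distance from genes, with which density fell. The karyotype of PC-3 derived lines is also abnormal. The parts of distance and of copy number in these densities were not tested.

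Remote peaks gathered in a few of the spaces between neighbouring coding genes. Of 417 such spaces with a remote peak, 277 held 1 and 27 held 5 or more, and those 27 took 205 peaks (26.9%). The fullest, between ZNF184 and H2BC13 on chromosome 6, held 17, and the space between SCAND3 and TRIM27 on the same chromosome held 14. The 0.292 Mb between ERRFI1, which encodes a feedback inhibitor of the EGF receptor, and SLC45A1, a sugar transporter gene, also held 14, with scores from 60.1 to 783.8 (median 173.9). The highest of these (chr1:8152952-8158060) and the next (chr1:8136716-8139645, score 777.72) lay in ERRFI1-DT, the divergent lncRNA of ERRFI1. The 13 in the gene desert between CDKN2B, a cell cycle inhibitor gene, and DMRTA1 scored 53.8 to 1050 (median 94.8). There were 12 between RPS23 and TMEM167A, with scores of 51.2 to 2695. The 2.89 Mb between ZPLD1 and ALCAM held 10 weak peaks, from 57.2 to 127.7, all gathered between chr3:104018169-104164759. In the chromosome 6 spaces 28 of 31 peaks held a tRNA-like element, while none did from ERRFI1 to SLC45A1 or from CDKN2B to DMRTA1. None of these 4 spaces had a remote peak with an AP-1 motif at its midpoint or a CpG-rich centre.

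Close-packed chains, in which midpoints followed each other within 10 kb, were rarer. Of 599 chains with a remote peak, 498 had just 1, and 36 had 3 or more, which took 133 peaks. The chain with most remote peaks held 7 of them among 8 peaks in 41.3 kb over LINC-PINT and LINC00513 on chromosome 7, 132652 to 168875 bp from KLF14, with scores of 52.01 to 928.13. A chain of 6 near TMEM167A contained the third highest remote peak. A further 6 in 30 kb between FTH1, the ferritin heavy chain gene, and INCENP scored up to 1212.4. The chain at MIRLET7BHG, host of let-7 microRNAs near PPARA on chromosome 22, had 17 peaks in 65.6 kb, of which 6 were remote and none above 169.62. The other chain of 6, near SCAND3, was made of tRNA-like elements throughout.

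Remote peaks lay in lncRNA genes and pseudogenes about as often as the remote sequence itself did. A lncRNA gene contained the midpoint of 245 peaks (32.2%, interval 28.9 to 35.6), while lncRNA genes made up 29.9% of remote bases. A pseudogene contained 19 (2.5%, 1.51 to 3.87), against 2.34% of bases. With any shared base counted, 250 peaks overlapped a lncRNA gene, 27 a pseudogene and 15 a small RNA gene, and 484 (63.6%, 60.1 to 67) overlapped none of these. Among the highest over a pseudogene were those at ST13P12 near TMEM167A (chr5:82262627-82266595, score 695.03; a second there scored 361.33), at an unnamed pseudogene near ACBD3 (494.75) and near PRMT8 (291.86). The last is the AP-1 peak printed above. Among the peaks kept by the rule, lying in a lncRNA gene went with no higher score. The median was 90.4 (83.2 to 101.7) there and 94.8 (89 to 102.7) outside all 3 kinds. The 226 peaks that the rule set aside at lncRNA starts had a median of 171.5 (134 to 225.5).

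U1 genes under remote peaks were few and high. A remote peak covered 3 of the 55 U1 genes and copies in remote sequence, and their scores of 2911.54 (RNVU1-18, chr1:149222921-149225167), 1787.72 (RNU1-59P, chr1:144533279-144534670) and 1616.28 (RNU1-120P, chr1:147735295-147736604) had ranks 2, 6 and 11 among the 761. The ACTTACCTG letters are unbroken in RNVU1-18 and not in the other copies, and the genes share 74% (RNVU1-18 with RNU1-59P), 74.3% (RNVU1-18 with RNU1-120P) and 63.7% (the last pair) of aligned positions. Over each of the 3 peaks, 70.8 to 84.8% of 32-base words occur once in the genome, against a remote median of 98.2%, and the part of shared reads in these scores was not tested. By contrast 2 of 334 U6 genes (RNU6-8, peak score 354.64, and RNU6-1266P) lay under a remote peak. Of 108 genes or copies of 7SK RNA 0 did, which allows a share of up to 2.78% by a limit of 3 counts. A 5S ribosomal RNA pseudogene, RNA5SP18, near RHOU lay under a peak of score 760.43 (chr1:228782306-228784379). In the remaining families 1 of 12 U2, 1 of 160 7SL and 1 of 124 Y RNA genes lay under a peak, and the differences between families were not tested.

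Transfer RNA-like elements lay under remote peaks far more often than their small share of remote sequence. An element was counted where an A box and a B box followed each other on a strand, 25 to 65 bases apart, in a loose form (B box GTTCNANNC) and a strict form (B box GTTCGANTC or GTTCGANCC, with a purine required in the A box). Both forms were chosen after the sequences had been seen, and annotated tRNA genes were not used here. Of 139 strict elements in remote sequence, 29 (20.9%, interval 14.4 to 28.6) lay under a peak, while peaks covered 0.122% of remote bases. Of the 9939 loose elements 55 (0.553%) did. Counted by peak, 54 (7.1%) held a loose and 29 (3.81%, 2.57 to 5.43) a strict element. The strict share exceeded that of gene-flanking peaks (2.26%) by 1.55 percentage points (0.266 to 3.23) and that of promoter peaks (0.379%) by 3.43 (2.28 to 5.04). Of the 29 remote peaks with a strict element, 19 lay in 1 stretch of chromosome 6, described below. The intervals count these as separate peaks, and the differences without the stretch were not computed. In sequence outside the remote rule, 154 of 343 strict elements (44.9%) lay under a peak.

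Of the remote peaks with an element, 31 of 54 lay on chromosome 6, and 28 of these came from the stretch of chromosome 6 known for its tRNA and histone genes. Between 27509204 and 28785556 there were 31 remote peaks, of which 28 held an element and 19 a strict form. Remote sequence in and just around the stretch held 43 loose elements, so 28 of 43 were under a peak. The 28 peaks scored 54.6 to 505.9, all far below the U1 peaks, and both SCAND3 sequences above came from among them (peak scores 469.21 and 400.89). Over all 54 peaks with an element the median score was 175.3 (111.8 to 279.2), above the 91.5 (86.7 to 96.5) of the 707 others, and the median width was 940 against 1247 bp. The 31 remote peaks of the stretch had a median score of 225.9 and a median width of 917 bp. These intervals take the peaks of the stretch as separate, and the contrast without it was not computed. Without the stretch, chromosome 6 fell from 1.17 to 0.702 remote peaks per Mb, near the 0.714 of all remote sequence.

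**Figure D3:**
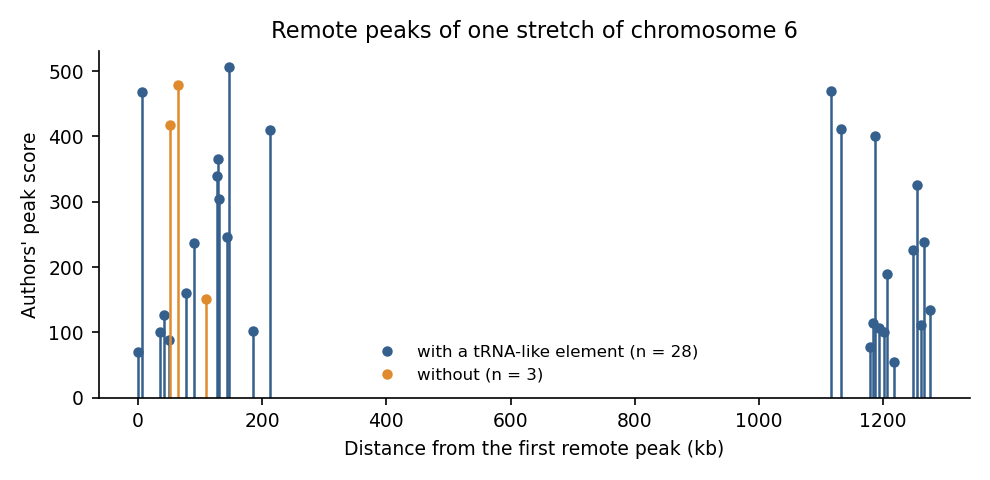
Authors' score of each of the 31 remote peaks in the chromosome 6 stretch against the distance in kb from the first of them; blue peaks hold a tRNA-like element (28) and orange peaks do not (3). The peaks form 2 separate groups, which lie in the space from ZNF184 to H2BC13 and in that from SCAND3 to TRIM27.

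Remote peaks were richer in GC than their surroundings but seldom CpG-rich. The central 200 bp had a median GC content of 48.5% (48 to 49.5), against 43% in flanks 5 kb away. Peak by peak the centre exceeded its flanks by a median of 5.75 percentage points (5 to 6.5), and did so in 561 peaks (73.7%). Promoter peaks had 67% GC and gene-flanking peaks 52.5%. A CpG-rich centre (over 55% GC, and an observed-to-expected CpG ratio over 0.65, in the central 500 bp) was found in 57 remote peaks (7.49%, 5.72 to 9.6), against 72.5% of promoter and 11.8% of gene-flanking peaks. Gene-flanking peaks kept those at lncRNA starts, which the rule set aside from the remote ones. Of the 226 set aside, 37.2% (30.9 to 43.8) had a CpG-rich centre, and their median GC content was 58%. The rule itself thus bears on the contrast with gene-flanking peaks, and its direction under an equal rule was not tested. These 57 had a median score of 187.3 (115.4 to 373.8), and their share was 15.8% in the highest of 4 equal groups by score and 4.71% in the lowest. Viewed from the sequence, 112 of 2349 CpG-rich windows of 500 bp in remote sequence (4.77%, 3.94 to 5.71) lay under a peak, compared with 0.148% of other windows.

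**Figure D4:**
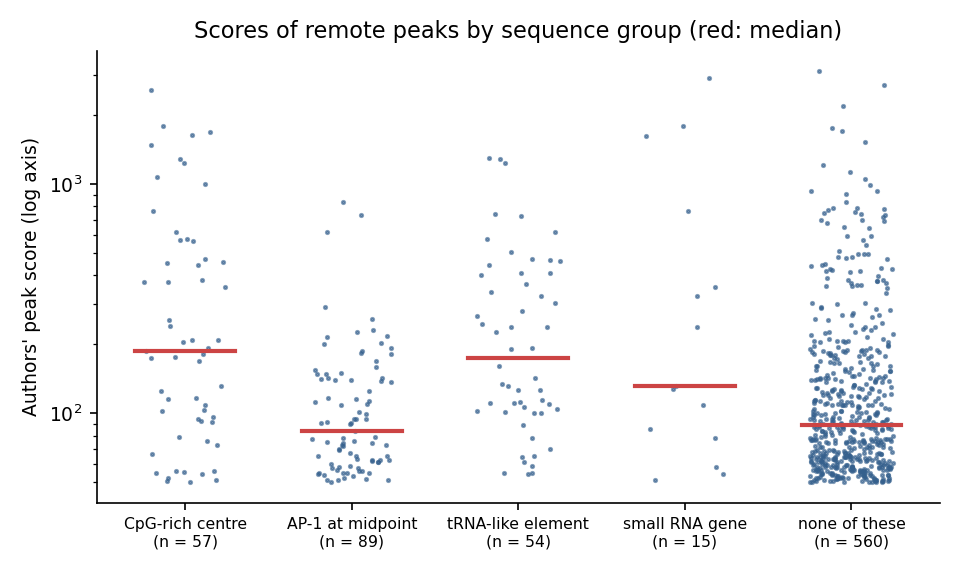
Authors' score of remote peaks on a log axis, by sequence group; each point is a peak and the red line is the median. A peak may stand in more than 1 group. Medians are 187.3 for CpG-rich centres, 83.7 for AP-1, 175.3 for tRNA-like elements, 131.1 for small RNA genes and 89.1 for the 560 peaks in none of these.

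The AP-1 motif was more frequent at the centre of remote peaks than at the centre of any other kind of peak compared. It occurred in the central 200 bp of 89 of the 761 (11.7%, interval 9.5 to 14.2). In windows of the same length 5 kb to either side it occurred in 51 of 1522 (3.35%), so the peaks stood 3.49-fold above their flanks. Of all 5320390 windows of 200 bp into which remote sequence can be divided, 3.08% held it, and 3.25% did after weighting to the GC content of the peaks. The share in remote peaks exceeded that in gene-flanking peaks (6.84%) by 4.85 percentage points (Newcombe interval 2.56 to 7.47), that in gene body peaks (6.34%) by 5.35 (3.16 to 7.9), and that in promoter peaks (1.71%) by 9.98 (7.87 to 12.5). The motif was also concentrated within the peaks. It occurred 0.673 times per kb within 200 bp of the midpoint and 0.194 times per kb beyond 3 kb, against 0.382 and 0.166 around gene-flanking peaks and 0.0994 and 0.158 around promoter peaks.

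**Figure D5:**
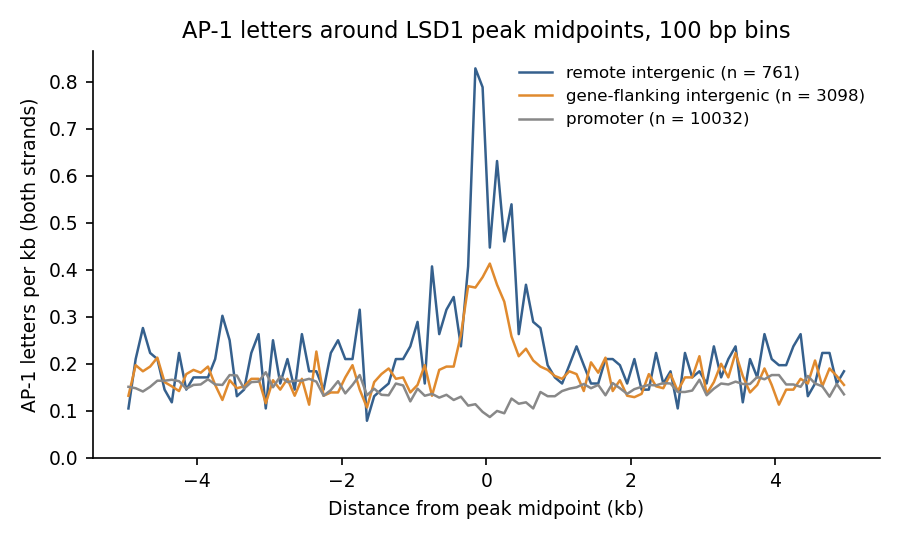
AP-1 motifs per kb on both strands, in bins of 100 bp, against the distance from the peak midpoint in kb, for remote (blue), gene-flanking intergenic (orange) and promoter peaks (grey). Remote peaks rise at the centre to 0.673 per kb within 200 bp, gene-flanking peaks rise less, and promoter peaks dip to 0.0994.

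AP-1 peaks were not the strong ones. The 89 peaks with the motif had a median score of 83.7 (72.1 to 109.2) against 96.3 (90.2 to 102.7) without it, intervals that overlap, and only 2 also had a CpG-rich centre. Over the 4 groups by score the share with AP-1 was 14.7% (9.97 to 20.5) in the lowest, 12.1% in both middle groups and 7.89% (4.49 to 12.7) in the highest. Among the 154 remote peaks whose score reached the median of the whole list it was 5.84% (2.71 to 10.8), against 2.6% in their flanks and 4.58% in gene-flanking peaks of such scores, which lies inside that interval. Median width moved with score too, from 908 bp in the lowest group to 2074 bp in the highest, and its part in these shares was not tested. The 4 highest AP-1 peaks, whose sequences are printed above, scored 835.97 near EEF1A1, a translation elongation factor gene (chr6:74288958-74291374), 733.41 near FOXL1, a forkhead factor gene (chr16:86697031-86699804), 618.05 near NUFIP1 (chr13:45491632-45493155) and 291.86 near PRMT8, an arginine methyltransferase gene (chr12:3413238-3414678). By distance the share lay between 10% and 11.5% up to 500 kb. Beyond 500 kb it was 22.4% (11 of 49, interval 11.8 to 36.6), an interval that overlaps the others.

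Of 18 motifs read on both strands, 3 others reached 1.5 times their flanks in at least 10 windows. The ETS letters CCGGAAG occurred in 14 remote windows (1.84% against 0.526% in flanks), led by the RNU1-59P peak and by peaks near ACBD3 (494.75), BOD1L1 (390.57) and BLM (240.05). The SP/KLF letters GGGCGGG, bound by Sp1-like factors, occurred in 38 (4.99% against 1.25%), but in 3.43% of remote windows once these were weighted to the peaks' GC content. Their highest peaks were those of PRKX and RNU1-59P, and peaks near RAB11FIP4 (1287.5) and SERTAD2 (1076.5). CACGTG, the E-box of MYC and USF proteins, occurred in 32 (4.2% against 2.37%), led by peaks near UBE2H (745.02), VRK1 (596.24), H2BC13 (410.28) and GTF2H5 (373.8). These 3 sets were therefore small beside AP-1, and ETS and SP/KLF were commoner at promoters, at 9.24% and 31.9%. With the same weighting to GC content, ETS letters stood in 0.855% of remote windows and CACGTG in 2.7%. Each of the 3 weighted values lay below the interval of the peaks' share. Those intervals were 1.01 to 3.07 for ETS, 3.56 to 6.79 for SP/KLF and 2.89 to 5.88 for CACGTG.

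Several motifs of epithelial and lineage factors stood near their flanks. CAGGTG, the E-box bound by the EMT repressors SNAI and ZEB, occurred at the midpoint of 15.4% of remote peaks and in 17.2% of flanks. That was below the 21.8% of all remote windows weighted to the peaks' GC content, and below the 22.2% of gene-flanking peaks (difference -6.83 points, interval -9.65 to -3.75). The forkhead letters TGTTTAC of FOXA factors stood at 2.76% against 3.75% in flanks. The letters AGATAA, read by GATA factors, stood at 10.2% against 11.9%. TEAD letters (GGAATG) stood at 13.1% against 11%, and RUNX letters (TGTGGTT) at 3.42% against 3.02%. The share with GATA letters was nevertheless 3.34 points above gene-flanking peaks (1.17 to 5.85), whose own flanks stood lower, at 9.43%. In contrast, the core of the CTCF motif occurred in 9 windows (1.18% against 0.526% in flanks, 2.25-fold) and that of NF-kB in 9 (1.18% against 0.46%, 2.57-fold). NRF2 letters (TGACNNNGC), which can overlap AP-1, occurred in 9.46% against 6.77%. In remote windows weighted to the peaks' GC content, CTCF stood at 0.971%, NF-kB at 0.725% and NRF2 at 7.37%. The CTCF and NF-kB values lie inside the intervals of the peaks' shares (0.542 to 2.23 for each). The NRF2 value lies just below its interval (7.48 to 11.8). No window held the palindromic androgen or glucocorticoid response element or the partial REST motif, which allows a share of up to 0.394% for each by the limit of 3 counts, or 0.484% by the exact binomial interval. The other 4 motifs occurred in 1 or 2 windows each: NRF1, C/EBP (TTGCGCAA), CREB (TGACGTCA) and ZNF143.

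Each remote peak was assigned to the coding gene with the nearest TSS, which says nothing of regulation. Among the 5621 coding genes that are nearest to some remote sequence, 464 (8.25%) were nearest to at least 1 remote peak. These genes differ in how much remote sequence they have around them, with a median of 63.6 kb per gene, so each list's density per Mb is given beside its share. The lists were not matched for distance from genes, with which density fell. The part of distance in the list densities was not tested. In the list of AP-1 and immediate early genes, which respond within minutes to growth factors, 4 of 13 eligible genes (30.8%, interval 9.09 to 61.4) had a remote peak. They had 13 peaks in 3.13 Mb, or 4.15 per Mb (2.21 to 7.09), against 0.714 for all genes. MYC, the growth-promoting transcription factor gene, had 6 (57.8 to 358.3). DUSP5, a phosphatase of ERK kinases, had 3, of scores 139.6 to 782.71 (highest chr10:112166699-112171680), and 2 of these held AP-1 at the midpoint. KLF4, a zinc finger factor gene, had 3 (64.3 to 477.79), and JUN, which encodes an AP-1 subunit, had 1, of score 109.15 and with AP-1 at the midpoint (chr1:59313868-59315553). Of those 13 peaks 6 belonged to MYC alone, and the 3 of DUSP5 followed each other within 10 kb. The Poisson interval takes peaks as independent, which such peaks may not be. This list, like the others, was chosen with earlier results of these data known.

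Developmental transcription factor genes border long gene deserts, and their share and density gave different pictures. A remote peak was nearest to 10 of 39 (25.6%), but their 12 peaks in 18.6 Mb made 0.645 per Mb (0.333 to 1.13), near that of all genes. The median remote sequence per gene was 292 kb in this list and 46.5 kb in the AP-1 list, so their distances from genes were unlike. Among the highest were those at LHX2 (481.71, 95.2 kb away) and RUNX3 (382.99, 82.1 kb), and SOX9 had 3 peaks, the highest at 147.89 and 680.2 kb away. Among growth factors and receptors 3 of 19 had a remote peak, with 5 peaks or 0.849 per Mb (0.276 to 1.98): VEGFC (204.44) and VEGFA (198.41), both vascular growth factors, and TGFB2 (73.81). Of the LSD1 complex genes, 2 of 7 did (2.56 peaks per Mb, 0.31 to 9.24), among them ZNF217, a zinc finger partner of CoREST (371.52). Of the prostate luminal genes 2 of 9 did (1.18 per Mb, 0.143 to 4.27), ALDH1A3 (135.02) and NDRG1 (74.07). No EMT and invasion gene of 12 eligible did. A limit of 3 counts makes this a share of up to 25%, and the exact Poisson interval of the density reaches 0.901 per Mb, so a density like that of all genes was not distinguishable. The same held for the 4 eligible basal epithelium genes (0, up to 2.42 per Mb).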

How the data were processed

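Reads came from an Illumina HiSeq and were aligned to hg19 by bowtie 2, per the labels' protocols. Bowtie2 and the peak caller MACS 1.41 are listed, per the submitters' processing notes, with hg19 and also mm10, which was not used for these human cells. Settings, duplicate handling and peak threshold are not given in the sources used here. The authors deposited 1 list of peaks with a score each, taken here as LSD1 called against input, which no label states outright. Unstated depth and threshold bear on every count, since a site without a peak only failed the threshold.

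Genes were those of GENCODE 44 on GRCh37 (78564 start sites of coding transcripts and 47999 of lncRNA), and sequence came from GRCh37. The other peaks were classed as promoter (10032, within 1 kb of a coding TSS), gene body (5993), gene-flanking intergenic (3098) and remote at a lncRNA start (226). Start sites of lncRNA were used only in the remote rule, so the other classes kept their peaks at such sites. Densities used all non-gap bases meeting the rule. Shares have Clopper-Pearson, densities exact Poisson, medians order-statistic and differences of shares Newcombe intervals. Motif backgrounds were flanks at 5 kb and all 200 bp windows of remote sequence, weighted in GC bins of 2%. Uniqueness is the percentage of 32-base words that occur only once in GRCh37.

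Regions named were the 12 highest in score, 5 farthest, 3 widest, 3 on either side of the limit, 5 fullest chains and spaces, 5 highest over small RNA genes and pseudogenes, up to 4 per motif that reached 1.5 times its flanks in at least 10 windows, and up to 4 genes per list. Some regions and genes that the rule names are not reported here. Members and lists were chosen with earlier results of these data known. In tests on simulated data, 100% of 20000 points got the same class by peak and by base, and 100% of 500 planted AP-1 motifs were found. Alternatives were other score, distance, TSS and lncRNA limits, windows and clustering distances. Leaving out peaks of low uniqueness, peaks with tRNA-like elements and the chromosome 6 stretch was added after seeing the data. Scripts ran in Python 3.11.15 with pandas 2.3.3, numpy 2.4.6, scipy 1.17.1, biopython 1.88, numba 0.67.0 and matplotlib 3.10.9.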

Additional observations from a re-analysis of the deposited data

How the results depend on the processing

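No paired analysis was possible because neither the LSD1 nor the input arm was replicated, so no replicate could be left out. Depth is unknown, so which weak remote sites fell below the authors' threshold cannot be told. The main results were recomputed in 69 alternatives, of which 37 kept within counting error and 32 moved. These are shares, densities and medians, which have no sign to change. Of 161 further values, 138 kept within it and 23 moved. Only peaks whose score reached the list's median gave a remote share of 1.53%, 0.144 per Mb, a width of 2118 bp, 24% with a neighbour, AP-1 in 5.84% and 2.05% of eligible genes nearest to a peak. A score of at least 100 gave 2.57%, 0.338 per Mb, 1707 bp, 31% with a neighbour and 4.38% of genes. A limit of 100 kb gave 1.95%, 0.459 per Mb, 1149 bp, 47.5% GC, 41.2% over a noncoding gene and 6.61% of genes, and a limit of 25 kb gave 6.63%, 1.08 per Mb, 1294 bp, 31.9% and 9.74%. Start sites of every transcript of coding genes gave 3.2%, 0.622 per Mb and 7.43%. The remote share was 4.91% with lncRNA start sites not used and 3.24% with a limit of 5 kb to them. Neighbours within 5 kb and 50 kb gave 24.7% and 61.5%. Windows of 500 bp gave 47.8% GC and AP-1 in 25.5%, and over whole peaks AP-1 occurred 0.445 times per kb. These settings change which peaks, genes or bases are counted, and what else may cause the shifts was not tested. The move of AP-1 per kb was certain, since a rate was set against the interval of a percentage. Wider windows and other neighbour distances also change the quantity itself. Such moves, counted among the 32, do not measure how stable a result is. The share with AP-1 was 2.25-fold to 3.95-fold that of the flanks in the reported setting and the 7 alternatives for which flanks were counted. With a score of at least 100 it was 9.97% against 5.41% in gene-flanking peaks.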

Other observations

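A further group of remote peaks, picked out after its values were seen, lay over microRNA host genes and beside HMGA2. On chromosome X, a chain of 4 remote peaks in 18 kb, 543126 to 559638 bp from DIPK2B, ran into MIR222HG, the host gene of the miR-221 and miR-222 microRNAs, and 3 of the 4 lay over it. Their scores were 832.81 at chrX:45602110-45604434 outside the gene, and 61.45, 54.77 and 52.56 inside it. They were 4 of the 16 remote peaks of that chromosome. HMGA2 was the nearest coding gene of 5 remote peaks, 142.1 to 193 kb away with scores of 85.18 to 1709, and 2 of them held the AP-1 motif at the midpoint.

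Among pseudogenes in remote sequence, those annotated as transcribed lay under a peak more often than the others. Any peak of the whole list was counted here, including those set aside at lncRNA starts, whose part was not tested. A peak covered 5 of 27 transcribed unitary pseudogenes in remote sequence (18.5%), 17 of 280 transcribed unprocessed ones (6.07%) and 8 of 132 transcribed processed ones (6.06%), against 7 of 901 unprocessed (0.777%) and 5 of 3599 processed ones (0.139%). Gene lengths were not taken into account.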
